A study of Mus musculus with 6 samples.

Results

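The genes described here encode the digestive enzymes of the lysosome and the proteins of its membrane. A list of 39 such genes was taken by symbol, with Tfeb, their transcriptional regulator, among them, and 37 of the 39 were measured by a named probe set, out of 19505 genes with a probe set on the array. Ctsd and Glb1 were not analysed here. RNA of the olfactory bulb (OB) was compared between 3 female Tg2576 mice and 3 female WT littermates, all 18 months old, each on its own mouse Clarion S array (Affymetrix). Tg2576 mice carry hAPPSw, the Swedish mutated form of human APP, under the hamster prion promoter and are used as a model of Alzheimer's disease, and WT mice lack the transgene. The whole bulb was extracted, so that fewer cells of a type and less RNA per cell cannot be told apart in any value below. Values are the authors' log2 expression values, and a difference of 1 on this scale is a doubling of the signal.

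Lysosomes are acidic compartments in which hydrolases break down proteins, glycans, sphingolipids and cholesterol esters that arrive by endocytosis and autophagy. Most of the soluble enzymes are carried there by receptors for mannose 6-phosphate, and inherited loss of a single one leads to a storage disease that often strikes the brain. In Alzheimer's disease and its mouse models, swollen neurites filled with lysosomal vesicles surround amyloid plaques, and the microglia at plaques carry high levels of cathepsins. When TFEB enters the nucleus, it binds E-box sequences that some lysosomal genes hold near their start.

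None of the 37 lysosomal genes differed between Tg2576 and WT OBs at the thresholds of the study, an unadjusted p under 0.01 with a fold over 1.3 or under 0.7. Across all 22206 probe sets tested, 0.797% passed them, with 155 (0.698%) higher and 22 (0.0991%) lower in Tg2576. The smallest adjusted p among the lysosomal genes was 0.555 (limma, Benjamini-Hochberg over all probe sets), and no probe set of the array had an adjusted p under 0.05. At an unadjusted p under 0.05, Npc2 alone was counted, which is 2.70% of the members beside 8.54% of all probe sets, or 4.57% counting only those higher in Tg2576. Differences ran between -0.13 for Ctsk and 0.27 for Npc2, folds of 0.914 and 1.21. In 28 of the 37 genes the 95% confidence interval lay within a 1.3-fold change either way, which is 75.7%, beside 70.3% of all probe sets. The other 9 intervals reached past 1.3-fold, 7 of them upward (Ctsc, Ctsh, Ctso, Man2b1, Npc2, Scarb2 and Laptm5) and 2 downward (Ctsk and Galc), and all 37 intervals lay within 1.5-fold. An exact test of 3 arrays against 3 cannot give a p under 0.1, and the p-values below therefore come from limma.

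**Figure D1:**
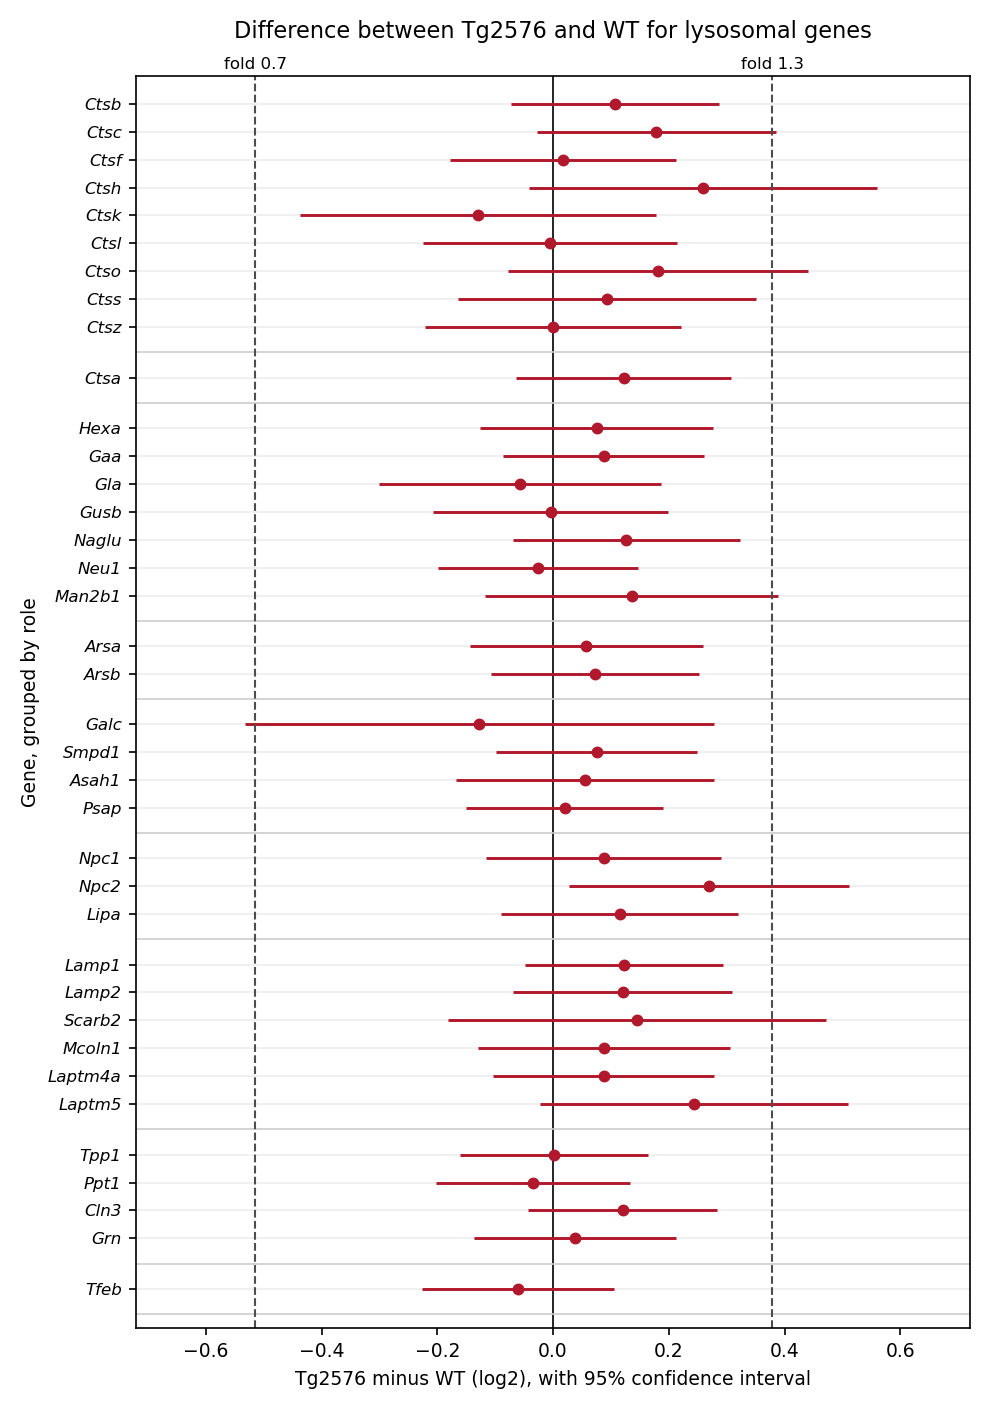
Difference between Tg2576 and WT for each lysosomal gene (log2, points) with its 95% confidence interval (bars), grouped by role, from 3 arrays per genotype. Points lie between -0.13 and 0.27, 28 of 37 of them above 0.

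As a group the lysosomal genes lay slightly above 0. The difference was above 0 in 28 genes and below 0 in 9, or 75.7% above 0, beside 48.4% of all probe sets and 51.7% of the 15444 probe sets at least as bright as the dimmest member. The median difference of the members was 0.087, a fold of 1.06, with quartiles at 0.0019 and 0.12. Over all probe sets the median was -0.0049, with quartiles at -0.085 and 0.077. Genes of one list are not independent, and these counts carry no test. Without WT replicate 2 the median of the members was 0.058.

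**Figure D2:**
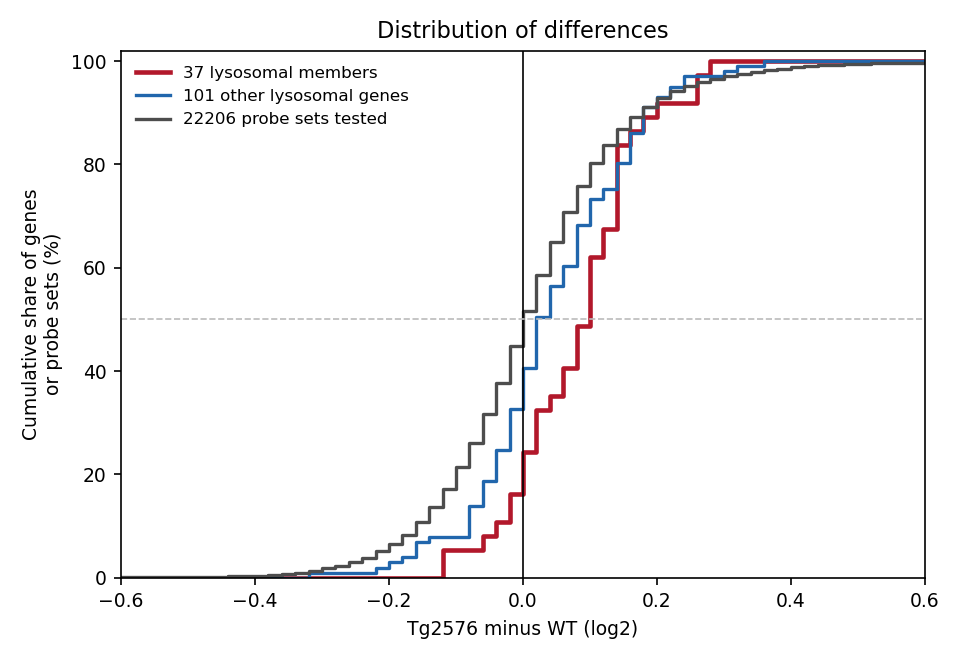
Cumulative share (%) of the 37 lysosomal genes, of 101 further lysosomal genes and of all 22206 probe sets against the difference between Tg2576 and WT (log2). The curve of the 37 genes lies to the right of that of all probe sets over most of its course, with medians of 0.087 and -0.0049.

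The 6 arrays did not divide by genotype over these genes. Relative to the WT mean of each gene, the median of the members was 0.056, 0.098 and 0.033 in Tg2576 replicates 1 to 3, against 0.046, -0.049 and -0.014 in WT replicates 1 to 3. WT replicate 1 thus lay above Tg2576 replicate 3. Of the 37 genes, 29, 29 and 25 were above their WT mean in Tg2576 replicates 1 to 3, against 32, 10 and 16 in WT replicates 1 to 3. The lowest of the 6 arrays was WT replicate 2 for 17 genes (45.9%, beside 21.6% of all probe sets) and WT replicate 3 for 12 genes (32.4%, beside 16.7%). Among probe sets at least as bright as the dimmest member, these arrays were the lowest for 26.3% and 17.1%. In Tg2576 the lowest array was replicate 1, 2 or 3 for 0, 2 and 5 genes. Leaving out 1 array moved the difference by over 1.5 times or turned its sign in 35 of the 37 genes, all but Lamp1 and Cln3.

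**Figure D3:**
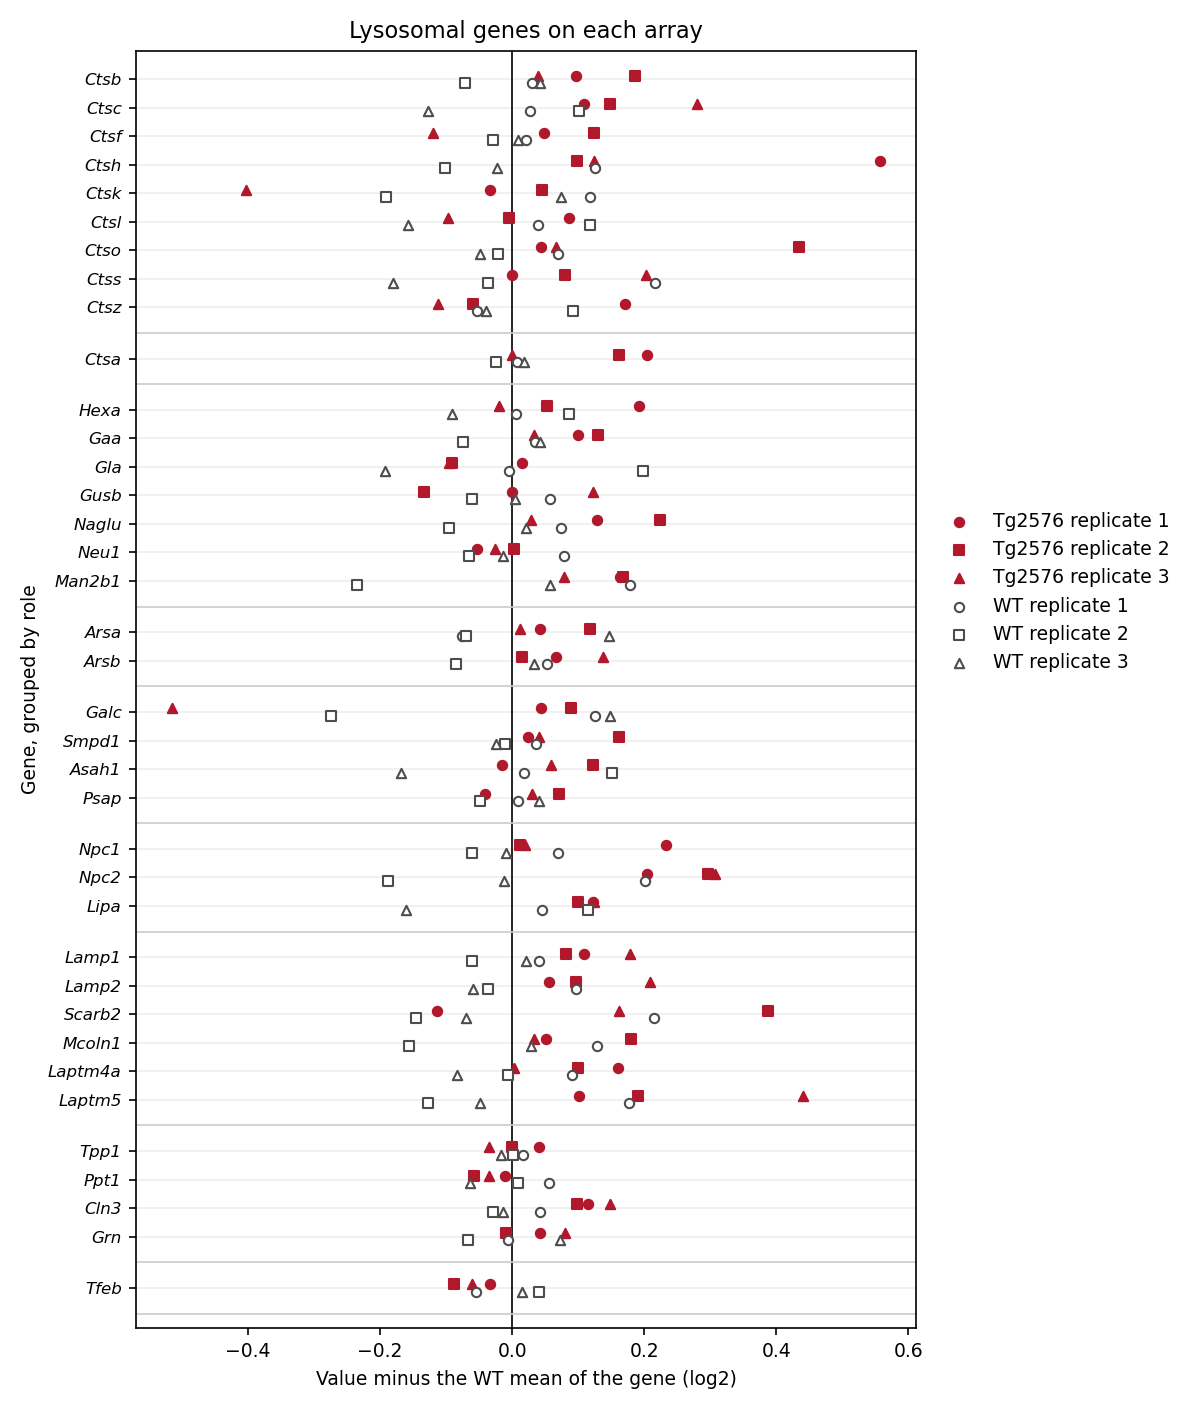
Value of each array minus the WT mean of the gene (log2), with Tg2576 arrays in red and WT arrays in grey outline, for the 37 lysosomal genes by role. Most rows show the genotypes overlapping, and WT replicate 2 is the lowest array in 17 rows.

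All 3 Tg2576 arrays lay above all 3 WT arrays in 4 members, Npc2, Ctsc, Lamp1 and Cln3, and below them in none. These are 10.8% of the members, beside 14.1% of all probe sets with groups that did not overlap, 7.03% above and 7.03% below.

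Npc2 is the soluble protein that hands unesterified cholesterol to NPC1 in the lysosomal membrane. Its log2 values were 8.86, 8.95 and 8.96 in Tg2576 OBs, against 8.86, 8.47 and 8.64 in WT OBs. The groups did not overlap, but Tg2576 replicate 1 and WT replicate 1 were level to 2 decimals, and the WT arrays spread more widely than the Tg2576 arrays. Means were 8.93 ± 0.057 in Tg2576 and 8.66 ± 0.20 in WT (SD, n = 3 each), a difference of 0.27 (SE 0.11, 95% confidence interval 0.027 to 0.51, limma adjusted p = 0.555). Leaving out WT replicate 1 gave 0.37 and leaving out WT replicate 2 gave 0.18. Without WT replicate 1 the unadjusted limma p was 0.0053, under 0.01, and the difference fell just short of 0.3785, the log2 of a 1.3-fold change. Npc1, the membrane partner, had 7.90, 7.68 and 7.69 in Tg2576 OBs, against 7.74, 7.61 and 7.66 in WT OBs. Tg2576 replicate 1 stood high, and the difference of 0.088 was 0.015 without it. Lipa, the acid lipase of cholesterol esters and triglycerides, was at 8.93, 8.91 and 8.93 in Tg2576 OBs, against 8.85, 8.92 and 8.65 in WT OBs. WT replicate 3 was the lowest, and the difference of 0.11 was 0.035 without it.

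Among the 9 cysteine cathepsins, proteases active at acid pH, the median difference was 0.094, with 6 above 0 and a range of -0.13 to 0.26. Ctsc, the dipeptidyl peptidase that activates serine proteases of immune cells, had values of 8.28, 8.32 and 8.45 in Tg2576 OBs, against 8.20, 8.27 and 8.04 in WT OBs. Tg2576 replicate 1 exceeded WT replicate 2 by less than either group's SD, and the difference was 0.18 (SE 0.090, 95% confidence interval -0.028 to 0.38, limma adjusted p = 0.636) and 0.11 without WT replicate 3. Ctsh, an aminopeptidase, had a difference of nearly the size of Npc2 but rested on 1 array. Its values were 9.11, 8.65 and 8.68 in Tg2576 OBs, against 8.68, 8.45 and 8.53 in WT OBs. The difference was 0.26 (SE 0.13), and it was 0.11 without Tg2576 replicate 1. Ctso, a less studied cathepsin, likewise had 1 high array, with 8.01, 8.40 and 8.04 in Tg2576 OBs against 8.04, 7.95 and 7.92 in WT OBs. Without Tg2576 replicate 2 its difference of 0.18 became 0.055.

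Ctss, the cathepsin of microglia and other antigen-presenting cells that trims the invariant chain of MHC class II, was at 10.16, 10.24 and 10.37 in Tg2576 OBs, against 10.38, 10.13 and 9.98 in WT OBs. WT replicate 1 was the highest of the 6 arrays, and the difference of 0.094 (SE 0.11) was 0.20 without it and 0.0037 without WT replicate 3. Ctsk, the collagen-degrading cathepsin of osteoclasts and the neighbour of Ctss on chromosome 3, was the dimmest member. It gave 7.10, 7.18 and 6.73 in Tg2576 OBs, against 7.25, 6.95 and 7.21 in WT OBs, and without Tg2576 replicate 3 its difference of -0.13 was 0.0059. The widely expressed proteases Ctsb, Ctsl, Ctsf and Ctsz differed by 0.11, -0.0054, 0.018 and -0.00022, each with groups that overlapped. Ctsa, a serine carboxypeptidase that also shields NEU1 and beta-galactosidase, differed by 0.12.

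The enzymes of glycan breakdown differed little. The 7 glycosidases had a median difference of 0.075, with 4 above 0 and a range of -0.057 to 0.14. Man2b1, a mannosidase of N-glycans, had the largest, with 9.36, 9.36 and 9.27 in Tg2576 OBs against 9.37, 8.96 and 9.25 in WT OBs. WT replicate 2 stood apart from the other 5 arrays, and the difference of 0.14 was 0.018 without it. Naglu, which removes N-acetylglucosamine from heparan sulfate, differed by 0.13, Gaa, the glucosidase of glycogen, by 0.087, and Hexa, a hexosaminidase subunit, by 0.075, or by 0.017 without Tg2576 replicate 1. Gusb, Neu1 and Gla, a glucuronidase, a sialidase and a galactosidase, differed by -0.0039, -0.025 and -0.057. The sulfatases Arsa, which desulfates the myelin lipid sulfatide, and Arsb, which acts on dermatan sulfate, differed by 0.057 and 0.073.

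Of the 4 genes of sphingolipid breakdown, 3 were above 0 and the median was 0.038. Psap, the precursor of the saposins that lift sphingolipids to their enzymes, was the brightest member, with 12.75, 12.86 and 12.82 in Tg2576 OBs against 12.80, 12.74 and 12.83 in WT OBs. These 6 values interleave, and the difference of 0.020 had a 95% confidence interval from -0.15 to 0.19. Smpd1, acid sphingomyelinase, differed by 0.076, and Asah1, acid ceramidase, by 0.055. Galc, the galactosylceramidase of myelin lipids, gave 7.52, 7.57 and 6.96 in Tg2576 OBs, against 7.61, 7.21 and 7.63 in WT OBs. It had the largest SE of the members, 0.18, and its difference of -0.13 was 0.066 without Tg2576 replicate 3. Both Galc and Ctsk lay among the dimmest members, and signals of different probe sets do not rank their transcripts.

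All 6 membrane proteins were above 0, with a median of 0.12 and a range of 0.087 to 0.24. Lamp1, one of the abundant glycoproteins that line the membrane, had 10.89, 10.86 and 10.96 in Tg2576 OBs, against 10.82, 10.72 and 10.80 in WT OBs. The groups were apart by a small margin, with means of 10.90 ± 0.050 in Tg2576 and 10.78 ± 0.054 in WT (SD, n = 3 each) and a difference of 0.12 (SE 0.075, limma adjusted p = 0.693). Lamp2, its relative that also serves chaperone-mediated autophagy, had 12.33, 12.37 and 12.48 in Tg2576 OBs, against 12.37, 12.23 and 12.21 in WT OBs. WT replicate 1 tied with the middle Tg2576 array, and the difference was 0.12. Laptm5, a membrane protein of blood-derived cells and microglia, had 9.36, 9.45 and 9.70 in Tg2576 OBs, against 9.44, 9.14 and 9.21 in WT OBs. Its difference was 0.24 (SE 0.12, limma adjusted p = 0.613), with WT replicate 1 above the lowest Tg2576 array, and it was 0.15 without Tg2576 replicate 3. Scarb2, a membrane receptor of the lysosome, had 9.66, 10.17 and 9.94 in Tg2576 OBs, against 9.99, 9.63 and 9.71 in WT OBs. Its arrays spread widely in both genotypes, and the difference of 0.15 (SE 0.14) was 0.024 without Tg2576 replicate 2. Mcoln1, the calcium channel TRPML1, had 11.23, 11.36 and 11.21 in Tg2576 OBs, against 11.31, 11.02 and 11.21 in WT OBs. WT replicate 2 was the lowest, and the difference of 0.088 was 0.0096 without it. Laptm4a differed by 0.087.

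The 4 genes of neuronal ceroid lipofuscinosis, in which lipofuscin builds up in neurons, had a median difference of 0.020. Cln3, a membrane protein lost in the juvenile form, had 9.66, 9.64 and 9.69 in Tg2576 OBs, against 9.59, 9.51 and 9.53 in WT OBs. It varied little within either group, and the groups did not overlap, with means of 9.66 ± 0.025 in Tg2576 and 9.54 ± 0.038 in WT (SD, n = 3 each). The difference was 0.12 (SE 0.071, 95% confidence interval -0.043 to 0.28, limma adjusted p = 0.688). Tpp1, a tripeptidyl peptidase, had 10.69, 10.64 and 10.61 in Tg2576 OBs, against 10.66, 10.65 and 10.63 in WT OBs. These values were nearly the same on all 6 arrays, and the difference of 0.0019 had a 95% confidence interval from -0.16 to 0.16. Ppt1, a thioesterase that strips palmitate from proteins, differed by -0.035, and Grn, the precursor of the granulins, by 0.038. Tfeb itself was at 9.64, 9.58 and 9.61 in Tg2576 OBs, against 9.62, 9.71 and 9.69 in WT OBs, a difference of -0.061 (SE 0.073). WT replicate 1 fell inside the Tg2576 range, so the groups overlapped.

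Promoter sequence was compared with the differences because TFEB recognises an E-box. RefSeq promoters (GRCm38.p6, 250 bases before to 50 bases after an annotated start) matched 33 of the 37 members, all but Ctsb, Ctsh, Asah1 and Npc1. The core CACGTG, which reads the same on both strands, was in 10 of the 33 (30.3%), beside 2187 of 27025 genes (8.09%). The longer TCACGTG, searched on both strands and containing the core, was in 8 of the 33 (24.2%), beside 4.29% of all genes. Stretches of 100 bases are shown for Lamp1, Cln3, Gla and Npc2. Lamp1 and Cln3 have cores and groups that did not overlap. Gla has cores and a difference below 0, and Npc2 has no core and the largest difference. The groups of Npc2 and Ctsc did not overlap either, and Ctsc has no core. In Cln3 the cores lie in the promoter of the second annotated start, and that of the first has 0. Capitals mark each core.
Lamp1: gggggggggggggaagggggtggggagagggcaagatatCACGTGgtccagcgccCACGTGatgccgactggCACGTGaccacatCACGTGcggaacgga
Cln3: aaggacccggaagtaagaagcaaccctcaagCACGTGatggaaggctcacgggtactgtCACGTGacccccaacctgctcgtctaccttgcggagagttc
Gla: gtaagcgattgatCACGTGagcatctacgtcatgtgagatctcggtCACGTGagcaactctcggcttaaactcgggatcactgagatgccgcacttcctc
Npc2: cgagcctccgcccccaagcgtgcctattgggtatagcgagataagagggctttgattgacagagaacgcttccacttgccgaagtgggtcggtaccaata
The stretch of Lamp1 lies at chr8:13159061-13159160 on the plus strand, at positions -100 to -1 from the start, and holds 4 cores. That of Cln3 lies at chr7:126583317-126583416 on the minus strand, at positions -180 to -81 from the second of its annotated starts, and holds 2. That of Gla lies at chrX:134601146-134601245 on the minus strand, at positions -240 to -141 from the start, and holds 2, and that of Npc2 at chr12:84773113-84773212 on the minus strand, at positions -100 to -1, with 0. The 10 members with a core had a median difference of 0.088 (8 above 0, range -0.057 to 0.13), and the 23 without one had 0.075 (16 above 0, range -0.13 to 0.27). A match of letters is a description and does not show that a factor binds there.

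**Figure D4:**
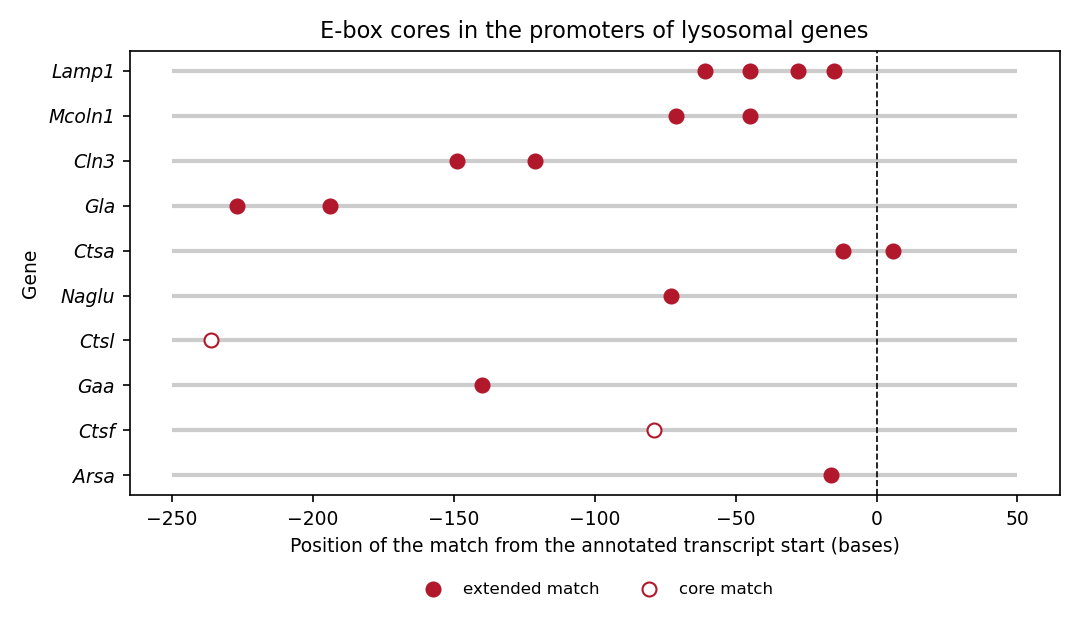
Positions of E-box cores from the annotated start (bases) in the promoters of the 10 lysosomal genes that hold one, with filled points for the longer match. Lamp1 has 4 cores and Ctsa, Gla, Mcoln1 and Cln3 have 2 each.

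Further genes of the lysosome showed no member past the thresholds in any list. Of 109 listed, 101 were measured, 60 of them (59.4%) were above 0, and their median difference was 0.019. At an unadjusted p under 0.05 there were 4 higher and 2 lower, which is 5.94% beside 8.54% of all probe sets. Among 24 further hydrolases and cofactors the median was 0.098, and Smpdl3a, a phosphodiesterase related to acid sphingomyelinase, had 9.84, 9.73 and 9.58 in Tg2576 OBs, against 9.31, 9.51 and 9.38 in WT OBs. Its groups did not overlap, and the difference was 0.32 (SE 0.095, limma adjusted p = 0.469). Its unadjusted p was under 0.01, but the fold of 1.25 was under the limit of 1.3. Among 24 further membrane proteins, 18 were above 0, and Tpcn1, a cation channel of endolysosomes, differed by 0.28 (SE 0.088, limma adjusted p = 0.482). The 18 subunits of the proton pump that acidifies the lumen had a median of -0.018 and the 11 genes of mannose 6-phosphate and sortilin sorting one of -0.031. Their genes of smallest p were Atp6v1c1, at -0.17, and M6pr, at 0.12.

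Among 20 relatives of Tfeb and parts of the mTORC1 machinery on the lysosome, the median was 0.016. Zkscan3, described in human cells as a repressor of autophagy and lysosomal genes, had 9.49, 9.41 and 9.26 in Tg2576 OBs, against 9.77, 9.77 and 9.61 in WT OBs. Its groups did not overlap, and the difference was -0.33 (SE 0.090, limma adjusted p = 0.420). Its unadjusted p was under 0.01, but the fold of 0.795 did not reach the limit of 0.7. Tfe3 and Mitf, relatives of Tfeb, differed by -0.0046 and 0.18. Of the 4 cystatins, inhibitors of cysteine cathepsins, Cstb had 9.14, 9.10 and 9.11 in Tg2576 OBs, against 8.97, 8.94 and 8.97 in WT OBs, a difference of 0.15 (limma adjusted p = 0.592), and Cst3 differed by 0.068 (SE 0.075).

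Lysosomal genes are broadly expressed, and some, such as Ctss and Laptm5, are prominent in microglia. Markers of cell types were therefore read on the same arrays. The 11 markers of bulb neurons had means of 9.23 to 13.36 in Tg2576 and 8.75 to 13.36 in WT OBs, above the medians of the negative controls. Their median difference was 0.016, with 8 above 0 and 3 below. Tbx21 alone of them passed the thresholds, higher by 0.48 (limma adjusted p = 0.446). Genotypes also did not overlap in Slc17a7 (0.30), Eomes (0.24) and Calb2 (0.12), higher in Tg2576, and in Snap25 (-0.13) and Slc32a1 (-0.070), lower. With Tbx21, 4 of the 11 lay above and 2 below, beside 7.03% of all probe sets each way. The 14 microglial markers had a median difference of 0.058, 9 were above 0 and none passed the thresholds, with Csf1r at 0.22 (limma adjusted p = 0.563). Relative to the WT mean, the median of the microglial list was 0.046, 0.080 and 0.16 in Tg2576 replicates 1 to 3, against 0.051, 0.058 and 0 in WT replicates 1 to 3, and the groups overlapped. All 7 oligodendrocyte markers were above 0, with a median of 0.27, and Cldn11 alone of them passed the thresholds, higher by 0.40 (limma adjusted p = 0.370). By array this list was at 0.060, 0.40 and 0.35 in Tg2576 replicates 1 to 3, against 0.13, -0.15 and 0.038 in WT replicates 1 to 3. WT replicate 2 was thus the lowest array here, as in the lysosomal genes. It was also the lowest for the bulb neuron list, at -0.024, and for the 15444 probe sets at least as bright as the dimmest member, at -0.011. The 9 astrocyte markers had a median of 0.20, with 7 above 0 and 2, Gjb6 at -0.16 and Aldh1l1 at -0.077, below it. Gfap alone of them passed the thresholds, higher by 0.43 (limma adjusted p = 0.381). All 3 Tg2576 arrays lay above all 3 WT arrays in 5 of the 9 (Gfap, Aqp4, Slc1a3, Slc1a2 and Gja1). The same held for 2 of the 14 microglial, 2 of the 7 oligodendrocyte and 3 of the 7 endothelial markers. No marker of these 4 lists had its groups apart in the other direction. The 7 endothelial markers also had a median of 0.20, with 6 above 0 and Esam at -0.045. Cldn5 alone of these passed, higher by 0.67 (limma adjusted p = 0.332). Border macrophages had a median of -0.012 over 6 markers, with 3 above 0, 3 below and a range of -0.13 to 0.84. The highest, Cbr2, had 11.39, 8.48 and 11.28 in Tg2576 OBs, against 8.89, 9.39 and 10.35 in WT OBs. The 6 markers of the meninges and choroid plexus had a median of 0.20. Dcn alone of the meningeal and choroid plexus markers passed, higher by 0.54 (limma adjusted p = 0.41). Markers of olfactory sensory neurons, which reach the bulb with their axons, had a median of 0.48, and those of the olfactory mucosa, a tissue outside the bulb, one of 1.12. In each of these 2 lists, and in that of the meninges and choroid plexus, 2 markers lay below the negative control median in both genotypes. Of the 9 sensory neuron markers 4 passed the thresholds, all higher (Omp, Gnal, Adcy3 and Stoml3), and of the 13 mucosa markers Trp63 did. Of all probe sets, 0.698% passed as higher. Trp63, higher by 0.60, had 7.53, 8.09 and 7.65 in Tg2576 OBs, against 7.31, 6.98 and 7.18 in WT OBs. Its highest array was thus Tg2576 replicate 2. The mucosa list had 11 markers above 0 and 2 below, Krt14 at -0.18 and Muc5ac at -0.035. Over the mucosa list the array values were 1.70, -0.075 and 1.47 in Tg2576 replicates 1 to 3, against -0.14, -0.056 and 0.17 in WT replicates 1 to 3. The lysosomal medians of Tg2576 replicates 1 and 3, the arrays with high mucosa values, were 0.056 and 0.033, and that of replicate 2, without them, was 0.098. The part of other cell types in the lysosomal values was not tested.

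**Figure D5:**
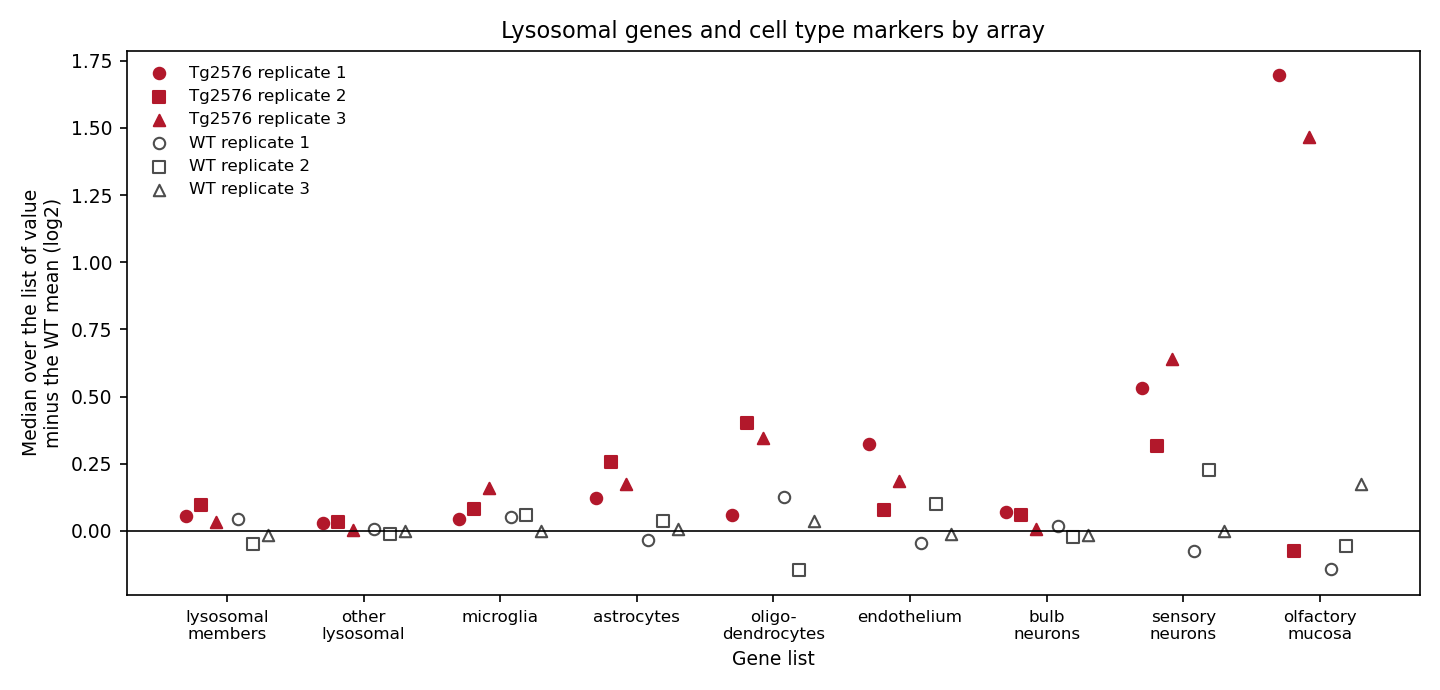
Median over each gene list of the value minus the WT mean of the gene (log2), with 1 point per array, for the lysosomal genes and the marker lists of cell types. The lysosomal points of the genotypes overlap, with 0.033 to 0.098 in Tg2576 and -0.049 to 0.046 in WT.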

How the data were processed

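Olfactory bulb RNA of 3 Tg2576 and 3 WT mice was hybridised to 1 array each. Background correction, quantile alignment and probe summary were done by the authors with RMA, per the labels (version not given), and their deposited log2 values were used unchanged. Of 28815 rows, 63 spike-in and 6546 normalization controls were left out. Of the 22206 probe sets tested, 19572 had 1 gene symbol in the platform annotation and 2634 had none. Each measured member had 1 probe set. The negative controls had medians of 6.78 to 6.91 by array, below the mean of every member, and 90th percentiles of 9.28 to 9.41, above the means of 15 members. Array medians were 8.18 to 8.22; precision is limited by the 3 arrays per genotype.

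Differences between genotypes came from limma 3.58.1 (R 4.3.3), a linear model with moderated variances (prior degrees of freedom 4.47), tested on simulated data. Calls used the thresholds of the study, and Benjamini-Hochberg values were taken over all probe sets. The members and lists were chosen with earlier results of these data known. All measured members are named, and in further lists the gene of smallest p and a few chosen relatives. Every array is given for members at p under 0.05, for members whose genotypes did not overlap and for the brightest and dimmest, and for some others where 1 array stood apart, chosen after their values were seen. Promoters came from RefSeq. Alternatives were robust limma-trend, array weights, further normalization (cyclic loess, quantile, median), a filter at a mean of 6, named probe sets only, other fold thresholds, a replicate block and each array left out.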

Additional observations from a re-analysis of the deposited data

How the results depend on the processing

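No lysosomal gene passed the thresholds under any alternative run, and none had an adjusted p under 0.05 in limma. At an unadjusted p under 0.05 there were 0 to 2. The median difference of the members was 0.058 (without WT replicate 2) to 0.10 (without WT replicate 1), and 26 to 32 members were above 0. The number of probe sets called over the whole array was 468 without a fold threshold, 280 of them higher and 188 lower, against 177 with it, and 169 to 249 with each array left out. With a fold under 1 / 1.3 as the lower limit, 75 were called lower. Taking the mean of all probe sets of a gene changed nothing, since each measured member had 1. Signal limits 15 members, whose means lay below the highest 90th percentile of the negative controls, where differences can be compressed. Among the 15 are Npc2, Ctsh, Laptm5, Ctso and Ctsc, with the largest differences, and Ctsk and Galc, with the lowest.

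Some differences changed sign, among them the lowest, those of Ctsk and Galc, without Tg2576 replicate 3. Ctsl was 0.035 and Ctsz 0.033 with array weights. Tpp1 was -0.015 after cyclic loess, -0.013 after quantile normalization and -0.011 after median centring, and Ctsf was -0.0099 after quantile normalization. With each array left out in turn, the differences ran from -0.018 to 0.020 for Tpp1, -0.036 to 0.087 for Ctsf, -0.086 to 0.056 for Ctsz, -0.067 to 0.061 for Gusb, -0.0059 to 0.050 for Psap, -0.23 to 0.0059 for Ctsk, -0.084 to 0.054 for Ctsl, -0.26 to 0.066 for Galc, -0.058 to 0.014 for Neu1, -0.15 to 0.042 for Gla and -0.029 to 0.13 for Asah1. The cause was not tested. Of 370 values of single members under the 10 alternatives that alter the differences, 24 changed sign.

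Replicate numbers did not pair the arrays. Deviations of same-numbered arrays correlated at 0.036, -0.038 and -0.043, and no Tg2576 array correlated best with the WT array of its own number. With the number as a replicate block, 225 probe sets and 0 lysosomal genes were called, and the median of the members was 0.087.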
